A study of Rattus norvegicus with 18 samples.

Results

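Unruptured ovarian follicles of rats given indomethacin (IM UF) were compared with unruptured follicles of rats given RU486 (RU UF). The groups were chosen by their titles, and they hold 6 of the 18 samples of the series, 3 in each group. All rats were Crl:CD(SD), an outbred Sprague-Dawley stock. Rats of IM UF received 4 mg/kg of indomethacin (IM) by mouth at 16:00 of proestrus. Rats of RU UF received 100 mg/kg of RU486 (RU), also called mifepristone, by mouth at 10:00 of proestrus. Follicles of both groups were taken at 10:00 of estrus, 18 h after indomethacin and 24 h after RU486, so the drug and the time since dosing cannot be told apart. Where other groups are used, IM PeF and RU PeF are follicles of equally treated rats taken at 22:00 of proestrus, 6 h and 12 h after dosing. Control PoF are ruptured follicles of untreated rats taken at 10:00 of estrus, and control PeF are peri-ovulatory follicles of untreated rats taken at 22:00 of proestrus. The labels name no vehicle-treated group. The labels state 3 animals per group and time, and 15 follicles per phase cut by laser microdissection from frozen sections 8 micrometres thick. They do not tie a sample to an animal, so each p-value reflects how far samples scatter within their groups, pooled over all groups of the series, which may be technical.

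Indomethacin inhibits the cyclooxygenases, which make prostaglandins from arachidonic acid, and prostaglandins are needed for the follicle wall to break after the surge of luteinizing hormone. RU486 blocks the progesterone receptor, which granulosa cells make in response to that surge, and it also blocks the glucocorticoid receptor. Both drugs can leave a follicle unruptured while its cells turn into luteal cells, which make progesterone from cholesterol.

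RNA was measured on 1 Affymetrix array per sample, and the values below are quantile-normalized probe set signals, a brightness without a unit. The median signal before normalization was 23.85, 7.68 and 19.57 in IM UF 1 to 3, against 16.87, 17.06 and 16.96 in RU UF 1 to 3, so IM UF 2 was a dim array. As a sign of RNA length, the 3′ end of Gapdh exceeded its 5′ end, on the log2 scale, by 2.19, 3.86 and 2.63 in IM UF and 3.27, 2.86 and 3.09 in RU UF. Replicates correlated with r from 0.95 to 0.974 in IM UF and from 0.964 to 0.97 in RU UF across probe sets, which are not independent. Of 13 granulosa cell markers with a probe set, 8 were above background on all 6 arrays, and their summed signal was 14098 to 19200 in IM UF and 15474 to 17947 in RU UF. The granulosa markers Grem1 and Ihh were at background in IM UF and Esr2 in RU UF. None of the 6 oocyte markers with a probe set was above background on all 6 arrays. They summed to 17.78 to 34.28 in IM UF and 31.22 to 47.12 in RU UF, with Zp1, Bmp15 and Kit at background in both and Zp3 in IM UF. These sums are therefore not read as a difference in oocyte content.

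The follicles differed widely between the drugs although both were unruptured. The X-linked gene Xlr5c, the zinc-binding metallothionein Mt3 and the atypical homeodomain gene Hopx were the genes most raised in IM UF. Aromatase (Cyp19a1), the guidance ligand gene Sema3d and the transcription factor gene Nfe2 were the most lowered. Limma called 1261 of 18155 probe sets at an adjusted p under 0.05, which is 6.95%, with 627 higher and 634 lower in IM UF. Counted by gene, with each gene at its brightest probe set, the calls came to 817 of 10391 (7.86%), 455 higher (4.38%) and 362 lower (3.48%), and 366 of them differed at least 2-fold. Differences are of log2(signal + 2.8), IM UF minus RU UF, with their standard error (SE), and folds are taken from them, so those of dim genes are understated. The median gene differed by 0.03 on this scale. Counts of list members below are to be read beside this median and the shares of all genes called, 4.38% higher and 3.48% lower. The number of probe sets called depends on the scaling between arrays: it was 557 when arrays were scaled to 1 median and 32 with the signals as deposited. It was 1888 when only the 6 arrays entered the fit and 660 to 920 when 1 of the 6 was left out.

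**Figure D1:**
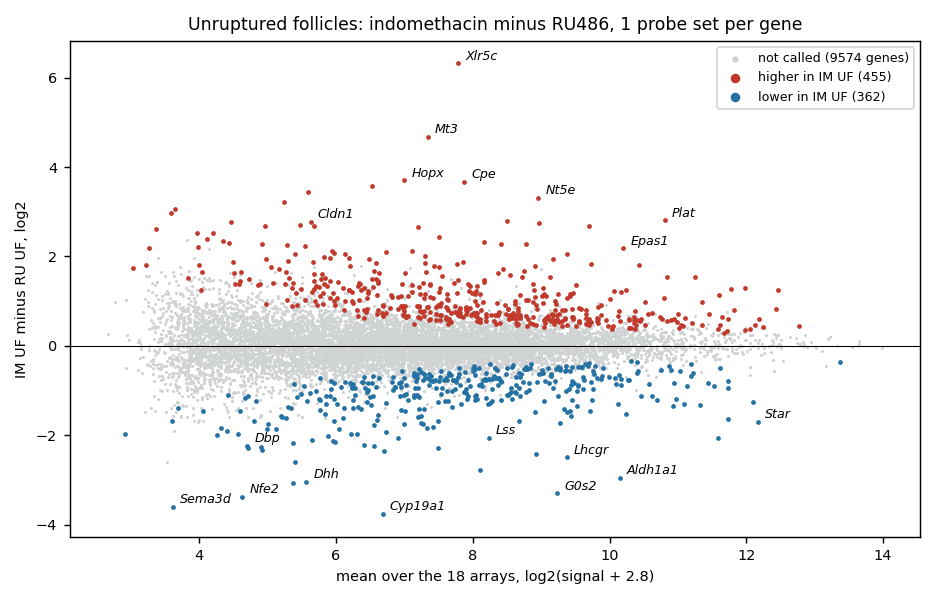
Difference between IM UF and RU UF (IM UF minus RU UF, log2) against the mean over the 18 arrays, for 1 probe set of each of 10391 genes. Red points are the 455 genes called higher and blue points the 362 called lower in IM UF, and Xlr5c at the top and Cyp19a1 at the bottom differ most.

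Of the genes higher in IM UF, Xlr5c had signals of 641, 1185 and 594 in IM UF, against 5.55, 13.4 and 3.84 in RU UF. The log2 difference was 6.32 ± 0.53 (SE, n = 3 per group, limma adjusted p = 3.46e-06), or 79.9-fold. The groups were far apart at 22:00 of proestrus too, with 661, 2210 and 1013 in IM PeF and 27.9, 16.3 and 4.87 in RU PeF. Ruptured control follicles had 1646, 1199 and 514, close to IM UF, so the low samples were those of RU486. Hopx had 448, 567 and 541 in IM UF, against 41.4, 30.2 and 40.8 in RU UF (3.70 ± 0.32, adjusted p = 3.46e-06). Carboxypeptidase E (Cpe), which trims prohormones, had 899, 1370 and 484 in IM UF and 86.3, 30.4 and 95.3 in RU UF (12.8-fold, adjusted p = 2.85e-05). For both genes every IM UF sample lay above every RU UF sample by a wide margin.

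Nt5e encodes the surface enzyme CD73, which makes adenosine from AMP. Its signals were 338, 1095 and 737 in IM UF, against 66.7, 58.2 and 64.0 in RU UF (3.31 ± 0.41, adjusted p = 9.23e-05). At 22:00 of proestrus the groups overlapped, with 1105, 563 and 774 in IM PeF and 667, 1260 and 1798 in RU PeF, and the difference between the times was called (3.86 ± 0.58, adjusted p = 0.00113). Plat encodes tissue-type plasminogen activator, a protease of the follicle wall, and it had 2322, 3612 and 1812 in IM UF and 426, 298 and 344 in RU UF (6.99-fold, adjusted p = 0.000918). Larp6, which binds collagen messages, was 9.27-fold and the skeletal muscle actin gene Acta1 8.30-fold higher in IM UF. Tmem35a, which helps acetylcholine receptors to fold, was 11.9-fold and the phospholipase gene Abhd3 6.94-fold higher, while the other probe set of Abhd3 differed by 1.29 and was not called (adjusted p = 0.0771).

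For a pair of these genes RU UF gave no signal above background, the brightest of the 27 unspiked control probe sets, so the fold is a lower bound. Lyve1, a hyaluronan receptor best known from lymphatic vessels, had 72.3, 61.3 and 60.6 in IM UF and 4.80, 5.38 and 1.0 in RU UF, at least 6.81-fold higher (adjusted p = 0.000272). Its other probe set differed by 2.94 and was called too. Prostacyclin synthase (Ptgis) had 34.4, 58.3 and 22.6 in IM UF and 3.60, 2.16 and 1.0 in RU UF, at least 3.90-fold higher (adjusted p = 0.00325). These bounds set the mean log2 value of IM UF against the background level of the RU UF arrays. Among the 12 largest rises, some but not all RU UF values of Xlr5c, Tmem35a, Larp6 and Acta1 were below that level, and their folds are given without a bound. Among the 12 largest falls, the same held for IM UF values of Cyp19a1, Sema3d and Hapln3.

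**Figure D2:**
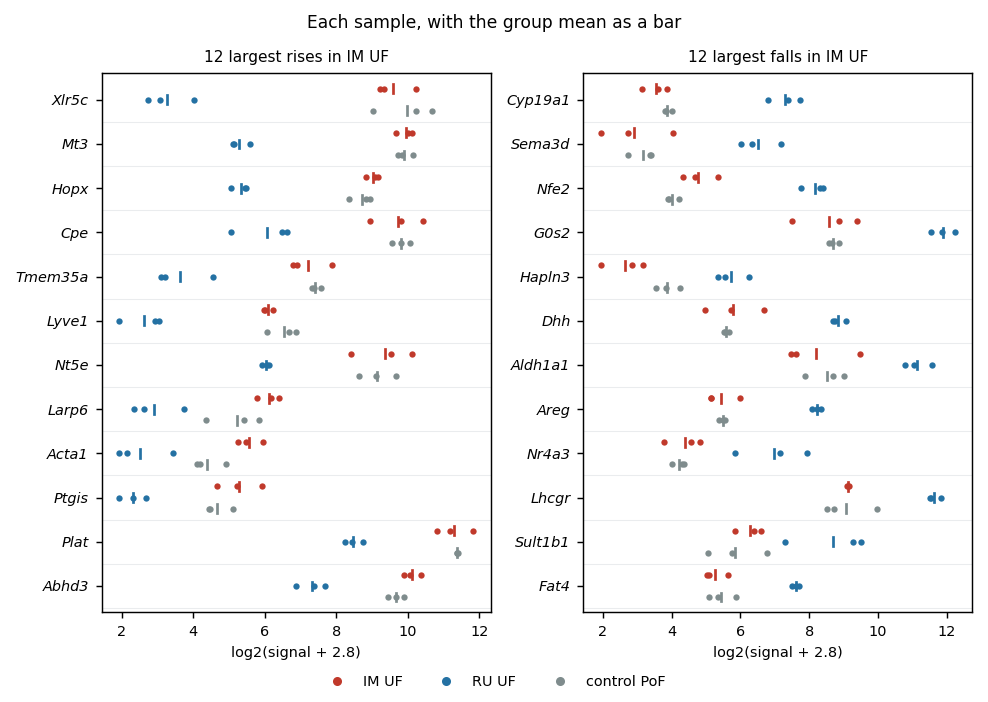
Signals of the 12 genes that rose most (left) and the 12 that fell most (right) in IM UF, on a log2 scale, with 1 point per sample and a bar at the group mean. From top to bottom, each gene shows IM UF, RU UF and control PoF, and genes were chosen so that the IM UF and RU UF points do not overlap.

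Metallothioneins bind zinc and copper, and Mt1 and Mt2A are induced by metals and by glucocorticoids. Mt3 had signals of 818, 1017 and 1114 in IM UF, against 31.6, 44.9 and 32.1 in RU UF (4.67 ± 0.61, adjusted p = 0.000172, 25.4-fold). Its relatives were not called at estrus. Mt1 had 158, 338 and 220 in IM UF and 304, 211 and 312 in RU UF (-0.25 ± 0.29, adjusted p = 0.697), and Mt2A had 3047, 1609 and 2684 in IM UF and 2133, 1665 and 1792 in RU UF (0.35 ± 0.31, adjusted p = 0.597). In both the groups overlapped. At 22:00 of proestrus the fold of IM PeF over RU PeF was 3.92-fold for Mt1, 4.01-fold for Mt3 and 4.11-fold for Mt2A. Mt1 (adjusted p = 0.000381) and Mt2A (adjusted p = 0.000535) were called, and Mt3, which varied more, was not (adjusted p = 0.069). The difference between the times was called for Mt1 (-2.22 ± 0.41, adjusted p = 0.00528) and Mt2A (-1.69 ± 0.44, adjusted p = 0.0475), and not for Mt3 (2.66 ± 0.87, adjusted p = 0.123). Mt3 had 51, 425 and 96 in IM PeF and 68.5, 40.2 and 8.67 in RU PeF.

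The promoters of Mt1 and Mt3 are shown because Mt3 was called at estrus and its relative Mt1, like Mt2A, was not. They span 250 bases before to 50 after the start site in RefSeq's annotation of GRCr8, at chr19:10832926-10833225 for Mt1 and chr19:10856031-10856330 for Mt3, both on the minus strand and written 5′ to 3′ along the gene. Capitals mark the core of the metal response element, searched as TGCACNC or TGCGCNC on both strands.
Mt1: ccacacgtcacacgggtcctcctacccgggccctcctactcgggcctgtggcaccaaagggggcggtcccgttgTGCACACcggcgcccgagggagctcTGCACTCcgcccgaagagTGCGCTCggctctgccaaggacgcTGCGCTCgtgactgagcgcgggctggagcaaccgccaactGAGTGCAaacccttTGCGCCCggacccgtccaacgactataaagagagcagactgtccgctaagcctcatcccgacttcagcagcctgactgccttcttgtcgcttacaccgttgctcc
Mt3: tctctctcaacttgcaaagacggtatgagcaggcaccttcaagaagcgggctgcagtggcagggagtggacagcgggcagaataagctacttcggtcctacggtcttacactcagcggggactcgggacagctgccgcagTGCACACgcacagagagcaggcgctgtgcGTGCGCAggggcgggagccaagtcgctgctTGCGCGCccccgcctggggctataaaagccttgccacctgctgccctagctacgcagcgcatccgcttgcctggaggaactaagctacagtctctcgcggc
Mt1 held 6 matches, Mt2A 4 and Mt3 3 in this window. Of all 33469 promoters of that length 24.2% held at least 1. A match is a description, not a site or a cause.

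Among the genes lower in IM UF, aromatase (Cyp19a1), which makes estradiol from androgens, had signals of 11.8, 6.07 and 9.43 in IM UF, against 208, 165 and 109 in RU UF. The log2 difference was -3.76 ± 0.49 (adjusted p = 0.000172, 13.5-fold), and both other probe sets were called the same way (-4.28 and -2.87). Ruptured control follicles had 11.1, 11.4 and 13.4, so here too RU UF stood apart. Sema3d, which encodes a secreted guidance protein, had 13.7, 1.06 and 3.89 in IM UF and 143, 77.7 and 62.0 in RU UF (12.1-fold, adjusted p = 0.000258). Nfe2, known from blood cell precursors, had 37.5, 17.2 and 22.9 in IM UF and 336, 313 and 214 in RU UF (10.4-fold, adjusted p = 0.000461). G0s2, which inhibits the lipase that breaks down stored triglyceride, had 662, 460 and 178 in IM UF and 4777, 2975 and 3688 in RU UF (9.82-fold, adjusted p = 0.000228). In all of them the highest IM UF sample lay below the lowest RU UF sample.

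Dhh encodes desert hedgehog, a ligand that granulosa cells of the mouse send to the theca. It had 99.3, 28.7 and 50.5 in IM UF, against 531, 428 and 411 in RU UF (-3.04 ± 0.41, adjusted p = 0.000222). It was low in both groups at 22:00 of proestrus, with 23.5, 33.8 and 24.7 in IM PeF and 21.7, 16.4 and 4.49 in RU PeF. Aldh1a1, which makes retinoic acid, had 709, 173 and 193 in IM UF and 3007, 1759 and 2124 in RU UF (7.73-fold, adjusted p = 0.000323). At proestrus it had 2535, 1443 and 2618 in IM PeF and 2255, 2281 and 1504 in RU PeF, which overlap, and the difference between the times was called (-3.05 ± 0.59, adjusted p = 0.0083). Hapln3, a hyaluronan link protein, was 8.31-fold, the orphan nuclear receptor Nr4a3 6.01-fold, the sulfotransferase Sult1b1 5.31-fold and the large cadherin Fat4 5.11-fold lower in IM UF. Nr4a3 and Sult1b1 were each called in 3 of the 6 fits that leave out 1 array, Nr4a3 not without IM UF 3, RU UF 1 or RU UF 2 (adjusted p = 0.00771 to 0.0805 over the 6) and Sult1b1 not without IM UF 2, RU UF 1 or RU UF 3 (adjusted p = 0.0017 to 0.0592).

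Genes of cholesterol synthesis and uptake were lower in IM UF. Of 24 tested genes of this list 13 were lower in IM UF than in RU UF and none was higher, with a median difference of -0.78, against 0.03 over all genes. Against ruptured control PoF the median of the list was 0.44 in IM UF and 1.34 in RU UF. Lss differed from control PoF by 0.17 ± 0.24 in IM UF and by 2.22 ± 0.24 in RU UF. Lanosterol synthase (Lss), which closes the sterol rings, had signals of 216, 241 and 352 in IM UF and 1129, 1142 and 1034 in RU UF (-2.05 ± 0.24, adjusted p = 5.08e-05, 4.14-fold). The sterol reductase Tm7sf2 had 236, 239 and 289 in IM UF and 668, 969 and 949 in RU UF (-1.73 ± 0.20, adjusted p = 5.09e-05). Stard4, which carries cholesterol through the cytosol, had 108, 138 and 217 in IM UF and 517, 585 and 488 in RU UF (-1.82 ± 0.27, adjusted p = 0.000569), although its other probe sets were not called (-1.32 and -0.27). Each of these genes separated the groups fully. The other called members, named after their values were seen, were Fdft1 (-1.04), Cyp51 (-0.90), Msmo1 (-0.89), Mvk (-0.87), Fdps (-0.83), Sqle (-0.82), Nsdhl (-0.80), Mvd (-0.79) and Ebp (-0.76), enzymes that run along the pathway. The last was Srebf2 (-0.47), the transcription factor that controls it. Of these 10 members Fdft1, Msmo1 and Fdps were called in all 6 fits that leave out 1 array, and the others in 1 or 2 of them. The highest difference in the list was that of the exporter gene Abcg1 (0.78 ± 0.26, adjusted p = 0.0884).

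At the earlier time the list held 8 members called lower and none higher in IM PeF against RU PeF, with a median of -0.53, where 3.85% of all genes were called higher and 2.17% lower. The difference grew between the times for Lss (-1.81 ± 0.33, adjusted p = 0.00581) and Tm7sf2 (-1.17 ± 0.28, adjusted p = 0.0339), and for no other tested member was a difference between the times called. Without IM UF 2, 7 members were lower and Abcg1 was higher. With arrays scaled to 1 median 3 were lower (median -0.67). With the deposited signals none was called, and the median was -0.82.

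The promoters of Lss and Nsdhl are shown because CCAAT, the box bound by the factor NF-Y beside SREBP sites in sterol genes, was frequent in this list. They lie at chr20:12118181-12118480 on the minus strand and chrX:155817110-155817409 on the plus strand of GRCr8, from RefSeq, over the same 300 bases around the start. Capitals mark CCAAT, or ATTGG where the box is on the other strand.
Lss: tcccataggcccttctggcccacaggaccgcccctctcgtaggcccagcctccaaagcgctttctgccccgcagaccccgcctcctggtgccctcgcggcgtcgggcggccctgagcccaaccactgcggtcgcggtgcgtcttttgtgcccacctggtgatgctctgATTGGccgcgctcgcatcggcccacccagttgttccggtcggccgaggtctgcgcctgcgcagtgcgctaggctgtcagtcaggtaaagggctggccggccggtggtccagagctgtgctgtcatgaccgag
Nsdhl: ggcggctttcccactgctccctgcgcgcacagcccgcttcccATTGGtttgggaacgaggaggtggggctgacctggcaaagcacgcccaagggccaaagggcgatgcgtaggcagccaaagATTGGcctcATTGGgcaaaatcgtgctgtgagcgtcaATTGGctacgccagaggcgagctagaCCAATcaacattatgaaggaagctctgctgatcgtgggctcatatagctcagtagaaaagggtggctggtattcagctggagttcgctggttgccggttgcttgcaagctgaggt
The Lss window held 1 box and that of Nsdhl 5. Only 0.218% of all promoters held 5 or more, so the Nsdhl window is not a typical one. Of the 13 lower genes 10 had a promoter in the RefSeq table, and 9 of these held the box, with Cyp51 the exception. Of all 24 tested members 19 had a promoter and 15 held it. The box was present in 37.5% of all 33469 promoters, and a match says nothing of binding.

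RNA of some genes of steroid synthesis was lower in IM UF than in RU UF, while steroids themselves were not measured. Star, which brings cholesterol into mitochondria, had signals of 3273, 2285 and 2828 in IM UF, against 7470, 10430 and 9288 in RU UF (-1.70 ± 0.14, adjusted p = 3.46e-06). Its other probe set was called too (-2.01). Cyp11a1, which makes pregnenolone from that cholesterol, had 9425, 8624 and 9566 in IM UF and 8843, 10650 and 10430 in RU UF and overlapped (-0.11 ± 0.09, adjusted p = 0.559). Of 12 tested genes of progesterone synthesis and breakdown 4 fell and none rose, with a median of -0.33. Hsd17b7, which acts on estrone and in sterol synthesis, had 569, 751 and 680 in IM UF and 1932, 2230 and 2198 in RU UF (3.19-fold, adjusted p = 0.00104). The electron carrier Fdx1 differed by -0.37 ± 0.09 (adjusted p = 0.0203), and Por, the reductase that feeds microsomal P450 enzymes, named after its values were seen, by -0.87 ± 0.25 (adjusted p = 0.0412). Fdx1 was called in 2 of the 6 fits that leave out 1 array, those without IM UF 2 and RU UF 1 (adjusted p = 0.0211 to 0.098 over the 6), and Por in 1 (adjusted p = 0.00636 to 0.211). With arrays scaled to 1 median the call of Fdx1 ended (adjusted p = 0.748). Akr1c3, also named Akr1c18, which inactivates progesterone, was not called (-0.69 ± 0.34, adjusted p = 0.263).

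Of 9 genes of androgen, estrogen and glucocorticoid metabolism 3 fell and none rose (median -0.81). Besides Cyp19a1 they were Hsd11b1, which interconverts active and inactive glucocorticoids, and Cyp17a1, which makes androgens. Hsd11b1 had 1245, 1668 and 922 in IM UF, against 3056, 2958 and 3094 in RU UF (2.44-fold, adjusted p = 0.00102). Cyp17a1 was at background in IM UF, with 1.14, 2.82 and 4.17, against 35.4, 20.1 and 19.5 in RU UF, at least 2.45-fold lower (adjusted p = 0.0227). Cyp17a1 was called in 1 of the 6 fits that leave out 1 array, the one without IM UF 3 (adjusted p = 0.0442 to 0.0972).

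**Figure D3:**
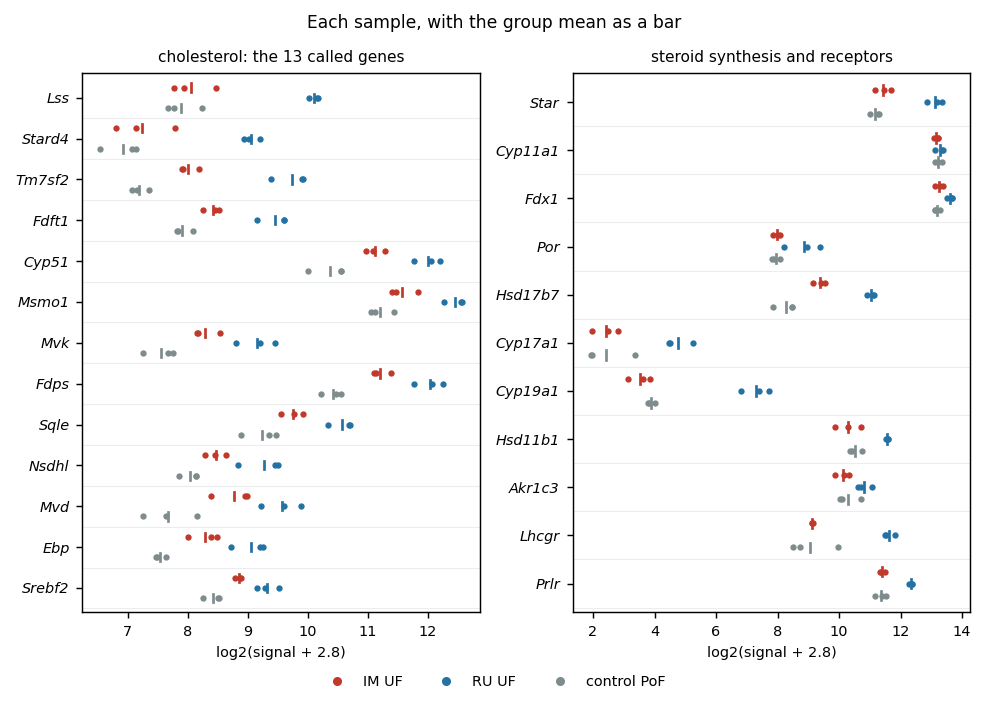
Signals of the 13 called cholesterol genes (left) and of 11 genes of steroid synthesis and hormone receptors (right) on a log2 scale, with 1 point per sample and a bar at the group mean. In each gene on the left IM UF lies below RU UF, and on the right Cyp11a1 overlaps while Cyp19a1 is farthest apart.

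Of 6 tested genes of hormone receptors 2 fell in IM UF and none rose, and both that fell encode receptors for hormones that sustain luteal cells. The luteinizing hormone receptor (Lhcgr) had signals of 567, 548 and 557 in IM UF, against 3634, 2880 and 2951 in RU UF (5.61-fold, adjusted p = 0.0253). The 3 IM UF values were nearly equal, but Lhcgr varied within the groups of proestrus, and the call ended whichever of the 6 arrays was left out (adjusted p = 0.0639 to 0.0857). The prolactin receptor (Prlr) had 2572, 2872 and 2655 in IM UF and 5290, 4951 and 5337 in RU UF (-0.94 ± 0.15, adjusted p = 0.000967), while its other probe sets were not called (-0.67 and -0.59). At proestrus Prlr ran the other way, 1.84-fold higher in IM PeF than in RU PeF (adjusted p = 0.00162). The progesterone receptor gene Pgr was low in both groups, which overlapped, with 6.70, 1.06 and 6.75 in IM UF and 11.2, 2.45 and 10.2 in RU UF (-0.49 ± 0.74, adjusted p = 0.79). The glucocorticoid receptor gene Nr3c1 overlapped as well (-0.14 ± 0.22, adjusted p = 0.798).

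Of 18 reported luteal genes 6 fell and 2 rose, with a median of -0.43. The list shares Star, Lhcgr and Prlr with those above. Rgs2, a brake on signalling through G proteins, had 1070, 1058 and 572 in IM UF and 4271, 3109 and 3494 in RU UF (4.14-fold lower, adjusted p = 0.000736). The proteoglycan versican (Vcan) was the called member of the cumulus and hyaluronan matrix list, 1 of 8 tested, and was named after its values were seen. It had 1083, 815 and 1304 in IM UF and 3181, 3147 and 3459 in RU UF (-1.63 ± 0.16, adjusted p = 1.14e-05).

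Theca and interstitial cell markers share genes with the steroid, cholesterol and receptor lists above, which hold 5 of the 9 tested markers. Of the 9, 5 fell (Star, Fdx1, Cyp17a1, Lhcgr and Aldh1a1), and Nr2f2 rose (0.57 ± 0.13, adjusted p = 0.0111). The other probe set of Nr2f2 differed by -0.05 and was not called, and Nr2f2 was called in 4 of the 6 fits that leave out 1 array, not without IM UF 1 or IM UF 2 (adjusted p = 0.00596 to 0.0554). The summed signal of the 10 markers with a probe set was 14861 to 15302 in IM UF, against 26766 to 29268 in RU UF and 13430 to 14616 in control PoF. The 4 tested markers on no steroid, cholesterol or receptor list (Aldh1a1, Insl3, Nr2f2 and Hhip) summed to 1406 to 2316 in IM UF and 2709 to 4036 in RU UF. The higher sum in RU UF lay in Aldh1a1, given above, with 709, 173 and 193 in IM UF and 3007, 1759 and 2124 in RU UF. Nr2f2 ran the other way, with 1564, 1501 and 1172 in IM UF and 1005, 917 and 904 in RU UF. Insl3 and Hhip were not called. Of the defining markers, Cyp17a1 was at background in IM UF and Hhip in RU UF. In bulk samples fewer cells of a type and less RNA per cell cannot be told apart, and the part of these cells in the result was not tested.

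Of 13 reported targets of the progesterone receptor in the follicle, 4 rose and 2 fell, with a median of 0.19. Epas1, a subunit of hypoxia-inducible factor, had signals of 1828, 2148 and 1929 in IM UF, against 327, 419 and 582 in RU UF (4.54-fold, adjusted p = 0.000488), while its other probe set was not called (0.97). Adamts1, a protease required for normal ovulation in the mouse, had 3115, 3688 and 3196 in IM UF and 1416, 1012 and 1019 in RU UF (1.55 ± 0.27, adjusted p = 0.00191). Endothelin 2 (Edn2), a contractile peptide made for a short time around rupture, had 448, 549 and 223 in IM UF and 82.6, 65.9 and 117 in RU UF (4.30-fold, adjusted p = 0.0131). In each of these genes all IM UF samples were higher. Edn2 was called in 4 of the 6 fits that leave out 1 array, and not without IM UF 2 (adjusted p = 0.0726) or RU UF 2 (adjusted p = 0.0654). At proestrus Edn2 lay the other way, with 28.5, 44.3 and 19.4 in IM PeF and 92.1, 174 and 61.7 in RU PeF (-1.68 ± 0.49, adjusted p = 0.0522), and the difference between the times was called (3.79 ± 0.69, adjusted p = 0.00507).

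The chemokine receptor gene Cxcr4 narrowed between the times. It had 1041, 2397 and 1080 in IM PeF, against 26.0, 24.2 and 23.0 in RU PeF, a 51.4-fold difference. At estrus it had 977, 1320 and 967 in IM UF, against 355, 415 and 207 in RU UF (3.42-fold, adjusted p = 0.00474). The lowest RU values were those of proestrus, and IM values were high at both times (difference between the times -3.91 ± 0.50, adjusted p = 0.000346). The members that fell were amphiregulin (Areg), a ligand of the epidermal growth factor receptor, and the transcriptional regulator Cited2, of which Cited2 was chosen after its values were seen. Areg had 32.7, 60.6 and 32.6 in IM UF and 296, 319 and 267 in RU UF (6.87-fold, adjusted p = 0.0463). The call of Areg ended whichever of the 6 arrays was left out (adjusted p = 0.0821 to 0.133), with the replicate number as a block (adjusted p = 0.0607), with no filter (adjusted p = 0.0658) and with no variance trend (adjusted p = 0.0878). Cited2 had 1907, 872 and 1131 in IM UF and 2858, 2858 and 2680 in RU UF (-1.18 ± 0.23, adjusted p = 0.00492).

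Most prostaglandin genes were not called at estrus, where 4.38% of all genes were called higher and 3.48% lower. Of 16 tested genes 2 rose and none fell, with a median of 0.01. They were Ptgis, given above, and Hpgd, which inactivates prostaglandins, with 1004, 943 and 833 in IM UF and 533, 260 and 438 in RU UF (2.34-fold, adjusted p = 0.021). Hpgd was named after its values were seen, and it was called in 3 of the 6 fits that leave out 1 array (adjusted p = 0.0212 to 0.127). Cyclooxygenase 2 (Ptgs2), which indomethacin inhibits as an enzyme, was low in both groups, with 12.4, 2.88 and 15.5 in IM UF and 6.17, 18.9 and 6.88 in RU UF. The difference of -0.09 ± 0.83 (adjusted p = 0.973) has a wide error, and without IM UF 2 it was 0.43. At proestrus Ptgs2 had 4395, 278 and 3612 in IM PeF and 6351, 5692 and 3115 in RU PeF.

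Glucocorticoid receptor targets separated the drugs mostly at proestrus. In IM PeF against RU PeF, where 6.02% of all genes were called, 10 of 21 tested targets were higher and none lower, with a median of 0.99. In IM UF against RU UF 4 were higher and 2 lower, with a median of 0.17. The difference between the times was called for 6 of the 21, against 3.1% of all genes. Fkbp5, a chaperone that limits the receptor, had signals of 1241, 2133 and 1860 in IM PeF and 726, 639 and 637 in RU PeF. At estrus it had 1856, 1828 and 1875 in IM UF and 1921, 2583 and 1917 in RU UF, and all RU values of estrus lay above those of RU PeF (difference between the times -1.54 ± 0.29, adjusted p = 0.0066). Its other probe set was called lower in IM UF (-0.55, adjusted p = 0.0455). Klf9, a transcription factor, was 2.13-fold higher in IM PeF than in RU PeF (adjusted p = 0.00111) and differed by -0.36 ± 0.18 at estrus (adjusted p = 0.278), where the groups did not overlap but the test was not passed. Tsc22d3, also known as GILZ, was 5.31-fold higher in IM PeF (adjusted p = 0.00763), with 269, 226 and 195 in IM UF and 201, 204 and 202 in RU UF at estrus, where the groups overlapped.

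The targets called higher in IM UF were Dusp1, Cebpd, Sgk1 and Errfi1. Dusp1, a phosphatase that turns off MAP kinases, had 702, 1064 and 400 in IM UF and 178, 175 and 284 in RU UF (3.20-fold, adjusted p = 0.00137). Cebpd, a transcription factor of the acute response, had 78.8, 122 and 78.5 in IM UF and 24.7, 39.1 and 44.6 in RU UF (2.47-fold, adjusted p = 0.00663), while its other probe set differed by 0.65 and was not called. The kinase Sgk1 (0.56 ± 0.15) and the growth factor receptor inhibitor Errfi1 (1.30 ± 0.36), like the cell cycle inhibitor Cdkn1c below, were named after their values were seen. Over the 6 fits that leave out 1 array Sgk1 was called in 1 (adjusted p = 0.00751 to 0.16) and Errfi1 in 2 (adjusted p = 0.0201 to 0.157). The targets called lower were Per1, a clock gene, and Cdkn1c (-1.74 ± 0.38, adjusted p = 0.00923).

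The circadian clock is a loop in which Per and Cry proteins repress their own transcription, and the output factor Dbp and the repressor Nr1d2 follow the same rhythm. Both groups were collected at 10:00, yet 6 of 16 tested clock genes were lower and 2 higher in IM UF, with a median of -0.22. Dbp had signals of 7.57, 17.8 and 12.9 in IM UF, against 78.4, 72.3 and 55.9 in RU UF (4.74-fold, adjusted p = 0.000768). Cry2 had 52.9, 27.9 and 55.9 in IM UF and 188, 303 and 178 in RU UF (4.73-fold, adjusted p = 0.000172). Nr1d2 had 143, 86.7 and 113 in IM UF and 412, 413 and 329 in RU UF (3.36-fold, adjusted p = 0.00069). The groups were apart in all of these genes. Against control PoF of the same hour, Dbp differed by -0.19 in IM UF and 2.05 in RU UF, Cry2 by 0.06 and 2.30, and Nr1d2 by -0.29 and 1.46. The median of the 16 clock genes against control PoF was -0.05 in IM UF and 0.32 in RU UF. Per1 had 88.3, 134 and 157 in IM UF and 318, 251 and 232 in RU UF (-1.09 ± 0.20, adjusted p = 0.00234).

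The other clock genes called were named after their values were seen. Per2 (-1.14 ± 0.27) and Per3 (-1.97 ± 0.50) were lower. Nfil3, a repressor that competes with Dbp (1.22 ± 0.24), and Npas2, a partner of the activator Bmal1 (1.29 ± 0.25), were higher. Bmal1 itself differed by 1.08 ± 0.36 and missed the threshold (adjusted p = 0.08). At proestrus 1 clock gene was called, Per1, 1.92-fold higher in IM PeF than in RU PeF (adjusted p = 0.00741), and the difference between the times was called for 5 of 16: Dbp, Cry2, Nr1d2, Per1 and Per2. The E-box CACGTG, which the clock's activators bind, was in none of the 300-base promoters of the 6 lower genes and in 6.42% of all promoters. No match says only that these letters are not in this window. With arrays scaled to 1 median 3 clock genes were lower and 2 higher, and the calls of Per1 (adjusted p = 0.0521), Per2 (adjusted p = 0.113) and Per3 (adjusted p = 0.0514) ended. Over the 6 fits that leave out 1 array Per2 was called in 3 (adjusted p = 0.00744 to 0.07) and Per3 in 2 (adjusted p = 0.0198 to 0.101).

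**Figure D4:**
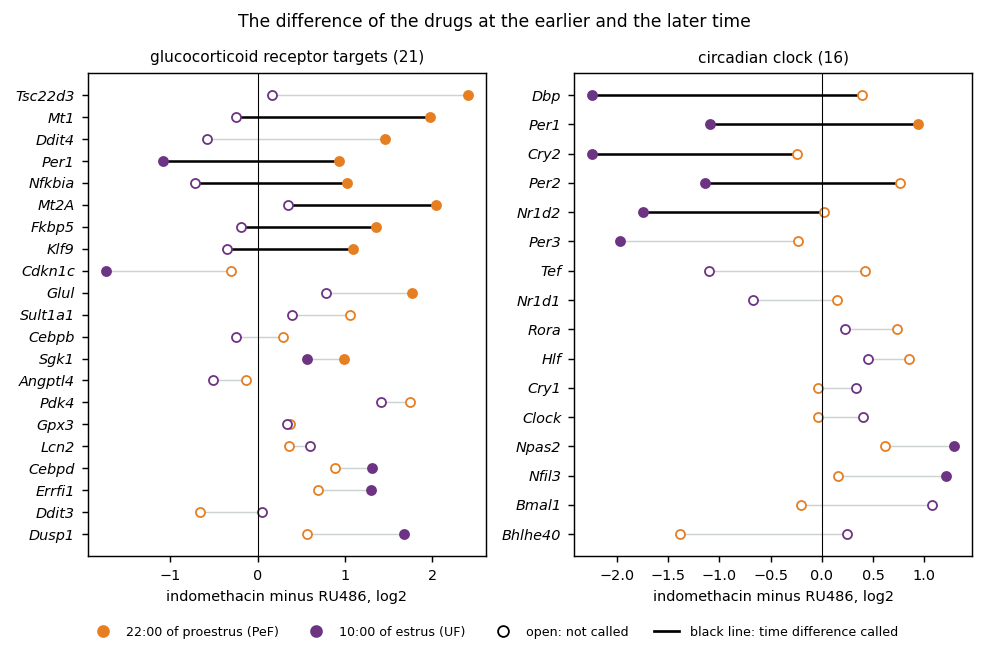
Difference between indomethacin and RU486 (log2) at 22:00 of proestrus (orange, PeF) and 10:00 of estrus (purple, UF) for 21 glucocorticoid receptor targets and 16 clock genes. Filled points were called, and black lines mark the 6 targets and 5 clock genes whose difference changed between the times.

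Of the matrix and coagulation genes that were called, most were higher in IM UF, while most members were not called. Of 11 tested genes of coagulation and fibrinolysis at the follicle 5 rose and none fell, with a median of 0.61. Tissue factor (F3), which starts coagulation, had signals of 66.2, 104 and 49.6 in IM UF, against 24.4, 15.4 and 24.1 in RU UF (3.07-fold, adjusted p = 0.0041). Its difference was larger at proestrus, with 942, 736 and 1060 in IM PeF and 76.5, 40.7 and 38.2 in RU PeF (17.4-fold). S100a10, which holds plasminogen activator at the cell surface, had 3754, 4777 and 3731 in IM UF and 2572, 2030 and 2346 in RU UF (0.82 ± 0.11, adjusted p = 0.000199). The thrombin receptor F2r had 1584, 1296 and 1450 in IM UF and 731, 763 and 1039 in RU UF (1.72-fold, adjusted p = 0.0053). The groups did not overlap in any of these genes. The S100a10 partner Anxa2 (0.46) and the protein C receptor Procr (1.41), named after their values were seen, were the others. Over the 6 fits that leave out 1 array Anxa2 was called in 3 (adjusted p = 0.0189 to 0.0581) and Procr in none (adjusted p = 0.0544 to 0.167). With arrays scaled to 1 median the calls of Anxa2 (adjusted p = 0.161) and F2r (adjusted p = 0.0709) ended.

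Of 37 collagens and structural matrix genes 8 rose and 1 fell, with a median of 0.35. Lysyl oxidase (Lox), which crosslinks collagen, had 326, 271 and 278 in IM UF and 104, 71.2 and 78.6 in RU UF (3.40-fold, adjusted p = 0.000118). Tenascin C (Tnc), a matrix protein of remodelling tissue, had 106, 168 and 83.6 in IM UF and 29.7, 21.7 and 30.8 in RU UF (3.92-fold, adjusted p = 0.00102). The basement membrane collagen Col4a1 had 923, 914 and 968 in IM UF and 459, 394 and 545 in RU UF (1.01 ± 0.17, adjusted p = 0.00132). In the last the 3 IM UF samples were nearly equal. The basement membrane laminin Lamb2, named after its values were seen, fell (-1.07 ± 0.19, adjusted p = 0.00209). Of 25 matrix proteases and inhibitors 4 rose and 1 fell, with a median of 0.44. Beside Plat and Adamts1, the protease inhibitor Timp1 had 2595, 2207 and 2045 in IM UF and 958, 1170 and 1371 in RU UF (1.97-fold, adjusted p = 0.00329). Timp1 lay the other way at proestrus (-0.64 ± 0.18, adjusted p = 0.0495).

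Of 22 tested junction and adhesion genes 6 were higher and 1 was lower in IM UF (median 0.21). The tight junction gene Cldn1 had 73.5, 71.6 and 90.7 in IM UF, against 10.7, 10.5 and 6.35 in RU UF (6.87-fold, adjusted p = 3.46e-06), and it was already 4.72-fold higher in IM PeF than in RU PeF. Another of its probe sets was called the same way and a further one was not. Cldn11 had 438, 332 and 483 in IM UF and 84.1, 109 and 177 in RU UF (3.45-fold, adjusted p = 0.0041). The laminin receptor subunit Itga6 had 341, 397 and 261 in IM UF and 758, 852 and 674 in RU UF (-1.20 ± 0.19, adjusted p = 0.00069). The genes given here have the smallest adjusted p among the called members of the list, and Itga6 was the only called member that was lower.

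Markers of contractile and connective cells are given beside these genes. Of 13 tested smooth muscle and pericyte markers 3 rose and none fell (median 0.72), and their summed signal was 2404 to 2965 in IM UF, against 1932 to 2062 in RU UF and 2144 to 2823 in control PoF. All 14 with a probe set were above background on the 6 arrays. The smooth muscle protein Tagln had 507, 435 and 412 in IM UF and 131, 245 and 162 in RU UF (2.57-fold, adjusted p = 0.00203), and enteric actin (Actg2) and desmin (Des) were 2.86-fold and 2.12-fold higher. Of 7 fibroblast and stroma markers Col3a1 alone was called (0.61 ± 0.15, adjusted p = 0.0189), called in 4 of the 6 fits that leave out 1 array (adjusted p = 0.0212 to 0.116), and their summed signal was 5551 to 6804 in IM UF and 3711 to 5125 in RU UF. None of 14 tested endothelial markers was called, with sums of 1120 to 1151 in IM UF and 819.4 to 1144 in RU UF. The part of these cells in the matrix result was not tested.

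Of 21 cytokines, chemokines and their receptors 3 rose and none fell (median 0.19). Besides Cxcr4 they were Ccl2, which attracts monocytes, and Tgfb2, a growth factor. Ccl2 had 228, 147 and 96.3 in IM UF, against 53.8, 26.6 and 25.9 in RU UF (4.15-fold, adjusted p = 0.00391). Tgfb2 had 34.2, 40.4 and 25.5 in IM UF and 7.01, 16.7 and 1.77 in RU UF (3.73-fold, adjusted p = 0.0443), and was called in 1 of the 6 fits that leave out 1 array, the one without RU UF 2 (adjusted p = 0.0247 to 0.211). The call of Tgfb2 also ended with arrays scaled to 1 median (adjusted p = 0.0803). Of 12 tested leukocyte markers 2 were called, both higher and named after their values were seen: Lyz2 (1.19 ± 0.34) and S100a9 (2.39 ± 0.71). Lyz2 was called in 1 of the 6 fits that leave out 1 array (adjusted p = 0.0359 to 0.167) and S100a9 in none (adjusted p = 0.0614 to 0.208). The leukocyte sum was 685.7 to 984.5 in IM UF, against 362.5 to 584.1 in RU UF and 481.5 to 1042 in control PoF. Itgam and Cd3d were at background in both groups, C1qb and Cd163 in RU UF. The part of leukocytes in the cytokine result was not tested.

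Genes induced by luteinizing hormone and immediate early genes did not share a direction. Of 21 such regulators 2 rose and 3 fell (median -0.25). Tnfaip3, which restrains NF-kB signalling, had signals of 207, 288 and 190 in IM UF, against 76.8, 69.8 and 92.8 in RU UF (2.77-fold, adjusted p = 0.000474). The transcription factor Runx1 had 2872, 3932 and 2610 in IM UF and 1163, 968 and 1872 in RU UF (2.41-fold, adjusted p = 0.00283). The genes that fell were Areg, Nr4a3 and Rgs2, given above. Of 20 immediate early and AP-1 genes 2 rose and 3 fell (median 0.11). Jund fell by 0.61 ± 0.09 on the log2 scale (adjusted p = 0.000345), but its other probe set differed by 0.09 and was not called. Jun had 196, 188 and 154 in IM UF and 229, 314 and 436 in RU UF (1.76-fold lower, adjusted p = 0.0189), was called in 3 of the 6 fits that leave out 1 array, not without IM UF 3, RU UF 2 or RU UF 3 (adjusted p = 0.00562 to 0.114), and had no call in its other probe sets (-0.70 and -0.40). With arrays scaled to 1 median the calls of Jund (adjusted p = 0.143) and Jun (adjusted p = 0.252) ended.

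**Figure D5:**
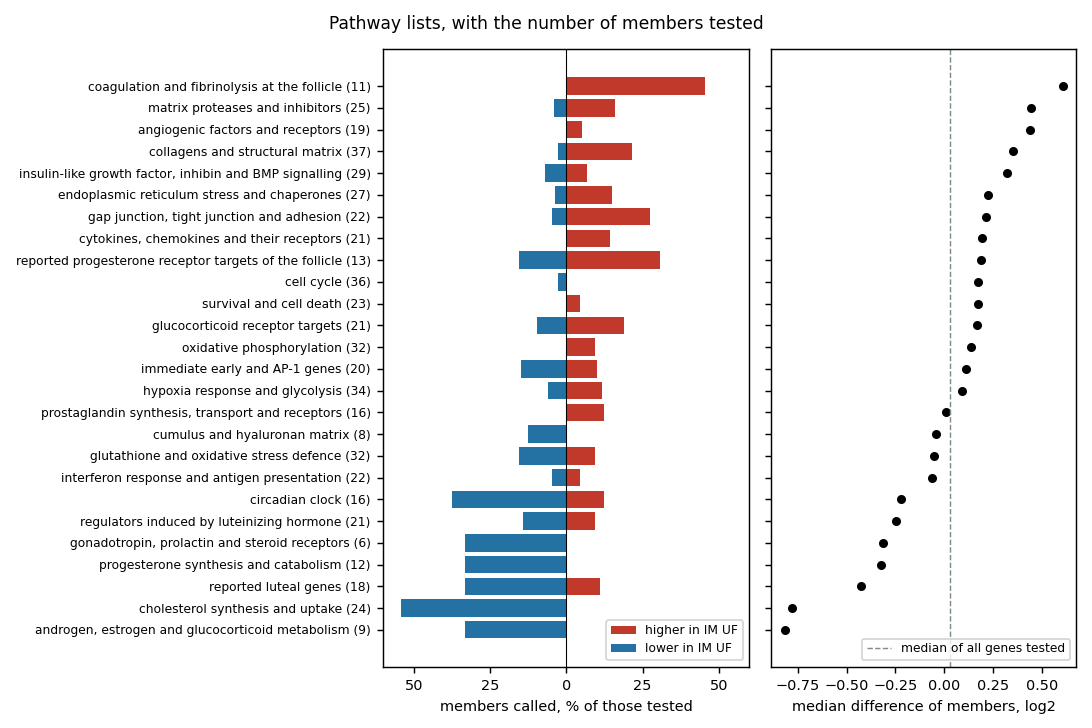
Share of the tested members of 26 pathway lists called higher (red, to the right) or lower (blue, to the left) in IM UF, and the median difference of the members in IM UF minus RU UF (log2), with the median of all genes as a dashed line. Lists are ordered by their median, with coagulation (0.61) at the top and the steroid and cholesterol lists (-0.81 and -0.78) at the bottom.

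Ruptured control follicles of the same hour are set beside both groups for a few genes. The comparisons share the control PoF samples, so their calls are not independent. Limma called 6 of 18155 probe sets in IM UF against control PoF (0.033%), with 1265 at an unadjusted p under 0.05, and 1578 in RU UF against control PoF (8.69%). For Mt3 the difference from control PoF was 0.04 ± 0.61 in IM UF and -4.63 ± 0.61 in RU UF. For Cyp19a1 it was -0.34 ± 0.49 in IM UF and 3.42 ± 0.49 in RU UF. For Star it was 0.25 ± 0.14 in IM UF (adjusted p = 0.825) and 1.95 ± 0.14 in RU UF (adjusted p = 5.88e-07). Ndrg1, which responds to hypoxia, was below control PoF in both comparisons (adjusted p = 0.0101 for IM UF): it had 187, 113 and 101 in IM UF and 35.8, 52.3 and 59.8 in RU UF, against 596, 533 and 418 in control PoF. IM UF lay between the others (2.58-fold above RU UF, adjusted p = 0.00496). Vegfa, the main growth factor of blood vessels, had 930, 880 and 971 in IM UF and 875, 778 and 795 in RU UF (0.18 ± 0.19, adjusted p = 0.668), a difference that did not pass the test. In control PoF Vegfa had 1905, 1559 and 1092. Against these, RU UF was called lower (-0.86 ± 0.19, limma adjusted p = 0.0096), and IM UF was lower without a call (-0.67 ± 0.19, adjusted p = 0.34).

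The drugs were also compared over time, with the difference at estrus minus that at proestrus. Limma called 476 probe sets (2.62%) and 322 genes, 127 higher and 195 lower. The median of all probe sets stood at 0.01, and scaling arrays to 1 median moved it to 0.13. The count was 218 with that scaling and 0 with the signals as deposited, where limma gave 326 at an unadjusted p under 0.05 and the median was 0.11. The insulin-like growth factor gene Igf1 turned over: it had 337, 355 and 483 in IM PeF and 839, 899 and 654 in RU PeF at proestrus. At estrus it had 268, 202 and 155 in IM UF and 135, 74.5 and 107 in RU UF (difference between the times 1.995 ± 0.33, adjusted p = 0.00265). At estrus alone Igf1 was 1.96-fold higher in IM UF (adjusted p = 0.0163), and was called in 3 of the 6 fits that leave out 1 array, not without IM UF 1, IM UF 2 or RU UF 2 (adjusted p = 0.012 to 0.0986). That call of Igf1 also ended with arrays scaled to 1 median (adjusted p = 0.0705). Igf2r, the receptor that clears the related factor Igf2, differed by 0.17 ± 0.18 at proestrus (adjusted p = 0.715), and at estrus it fell by 1.09 ± 0.18 on the log2 scale in IM UF (adjusted p = 0.00123).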

How the data were processed

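Each of the 18 samples was hybridized to 1 Affymetrix rat array. The authors deposited linear probe set signals, an intensity without a unit and with a lowest value of 1, and the only tool that the submitters' processing notes name is MAS5, with version and scaling not given in the sources used here. Groups were taken from the titles. The labels' stage field calls the unruptured samples post-ovulatory.

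Of 31099 probe sets 57 controls were left out. Arrays were quantile-normalized and values v became log2(v + 2.8), where 2.8 is their 20th percentile, so differences of dim genes are understated. The test took the 18155 probe sets that exceeded the median of the array on 3 or more of the 18. Limma 3.58.1 (R 4.3.3) fitted 1 mean per group over all 18 samples, with 12 residual degrees of freedom, moderated variances with a trend (eBayes) and Benjamini-Hochberg adjustment over all probe sets, and a call was an adjusted p under 0.05. The number of arrays limits the precision: an exact permutation test of 3 against 3 cannot go below 0.1. Tables and figures used Python 3.11.15, pandas 2.3.3 and matplotlib 3.10.9. The fit was tested on simulated data.

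The platform annotation gives 1 symbol for 20826 of the other 31042 probe sets, several for 436 and none for 9780. A gene stands for its probe set of highest mean, 10391 genes in all. A signal was at background where it did not exceed the brightest of 27 unspiked control probe sets on every array of a group, and "at least" folds set the brighter group's mean log2 value against the higher of that level and the gene's own value on each array.

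The genes named were the 12 largest rises and 12 largest falls without overlap between groups, up to 3 called members with the smallest adjusted p of each list with at least 3 called, and 20 set genes, of which 2 are not reported here. That made 90 genes. The members and the 35 gene lists were chosen with earlier results of these data known. Alternatives were other scalings, pseudocounts, filters, samples, weights, probe sets, a replicate block, and leaving out each array. Same-numbered IM UF and RU UF samples did not deviate together, so the numbers were not used as pairs.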

Additional observations from a re-analysis of the deposited data

Results flagged for a closer look

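For 35 of the 90 named genes limma called the difference of the drugs at estrus minus their difference at proestrus, each value below being that log2 difference between the times. It was called for 3.1% of all genes, but most named genes were chosen for their difference at estrus, which enters this value, so the shares are not set against each other. Among genes that were called at estrus and not at proestrus, positive values were those of Nt5e (3.86), Larp6 (3.35), Acta1 (3.715), Runx1 (1.36), Lox (1.75), Pfkp (1.535), Ndrg1 (1.76), F2r (1.13) and Edn2 (3.79). Negative values among them were those of Sema3d (-3.23), Dhh (-4.02), Aldh1a1 (-3.05), Fat4 (-2.21), Lss (-1.81), Tm7sf2 (-1.17), Bnip3l (-0.82), Cry2 (-1.996), Nr1d2 (-1.77), Dbp (-2.64), Gstm1 (-1.81), Igf2r (-1.26) and Itga6 (-1.20).

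The drugs differed in the same direction at both times for Hopx (2.18), Star (-0.88), Cxcr4 (-3.91), Tnfaip3 (-1.28) and F3 (-2.50). They differed in opposite directions, with a call at each time, for Per1 (-2.025), Timp1 (1.62), Igf1 (1.995) and Prlr (-1.825). In Per1 and Prlr the IM samples were the higher ones at proestrus and the lower ones at estrus, and in Timp1 and Igf1 the reverse held. The difference was called at proestrus and not at estrus for Mt1 (-2.22), Mt2A (-1.69), Fkbp5 (-1.54) and Klf9 (-1.45), all of them glucocorticoid receptor targets on the list. The interval since dosing differed between the drugs at both times, and its part in these values cannot be told apart from that of the drugs.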

How the results depend on the processing

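Beside the 1261 probe sets called, the count was 32 with the signals as deposited (18 higher, 14 lower, 31 shared with the 1261), 557 with arrays scaled to 1 median (316 higher, 241 lower, 545 shared) and 2642 with arrays weighted by quality (1364 higher, 1278 lower). Leaving out 1 of the 6 arrays gave 660 (without RU UF 2) to 920 (without IM UF 1), with 345 to 448 higher and 311 to 472 lower, and 705 without IM UF 2. Fitting only the 6 arrays gave 944 higher. Requiring 2-fold left 626 (307 higher, 319 lower), and counting 1 probe set per gene gave 817 (362 lower), both fewer by construction. The difference between the times was called for 0 probe sets with the signals as deposited, 218 with median scaling, 2067 with weights, 728 without the 3 dimmest arrays and 281 to 370 without 1 array. The other pseudocounts, filters and fits moved no count by more than 1.5 times, and the cause of these shifts was not tested. Of 79 called named genes none turned its sign in these fits. Their calls ended for 60 with the signals as deposited, for 15 with median scaling and for 12 without IM UF 2, and 64 were called in all 6 fits that left out 1 array. Another probe set had the opposite sign, without a call, for Jund (0.0859) and Nr2f2 (-0.0546). Among genes not called, Ptgs2 turned to 0.13 with weights and 0.43 without the 3 dimmest arrays and ranged from -0.41 to 0.43 without 1 array, Mt1 ranged from -0.53 to 0.0079 without 1 array, and another probe set of Nr3c1 gave 0.10. With the replicate number as a block 1117 probe sets were called (566 higher, 551 lower), and 391 for the difference between the times. Deviations of same-numbered IM UF and RU UF samples correlated with r of 0.03, -0.04 and -0.01, so the numbers do not pair them. Dim genes are limited by the background of each array, which after normalization was highest in IM UF 2 among the 6 arrays and in control PeF 3 among all 18.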

Other observations

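Genes of oxidative stress defence were called in both directions. Of 32 tested 3 were higher and 5 lower in IM UF, with a median difference of -0.05, against 0.03 over all genes, of which 7.86% were called. With arrays scaled to 1 median none was higher and 3 were lower. The members given here, those with the smallest adjusted p, were all lower. Gsta4, which conjugates products of lipid peroxidation to glutathione, had signals of 1924, 1662 and 1584 in IM UF, against 4807, 4254 and 4152 in RU UF (2.56-fold lower, limma adjusted p = 0.000151). Gstm1, of the same enzyme family, had 168.7, 56.1 and 97.2 in IM UF and 518.7, 374.1 and 369.6 in RU UF (4.17-fold lower, adjusted p = 0.00069). The transcription factor of the antioxidant response, Nfe2l2, differed by -0.56 ± 0.10 (adjusted p = 0.00258), a call that ended with arrays scaled to 1 median (adjusted p = 0.277). Of 27 chaperone and stress genes 4 were higher and 1 lower (median 0.22). The small heat shock protein Hspb1 had 564.7, 433.6 and 709.9 in IM UF, against 128.4, 152.3 and 172.6 in RU UF (3.67-fold, adjusted p = 0.000335). Asns, which makes asparagine, had 192, 261.7 and 439 in IM UF and 36.8, 87.9 and 52.6 in RU UF (4.86-fold, adjusted p = 0.00131). The chaperone partner Sdf2l1 differed by 0.85 ± 0.21 (adjusted p = 0.0204) and was called in 3 of the 6 fits that leave out 1 array (adjusted p = 0.0412 to 0.0974).

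Of 34 hypoxia and glycolysis genes 4 were higher and 2 lower (median 0.09). The glycolytic enzyme gene Pfkp had 2891, 2838 and 3015 in IM UF, against 1167, 1348 and 1662 in RU UF (2.11-fold, adjusted p = 0.000345). Bnip3l, which marks mitochondria for removal, had 885.8, 816.2 and 711.2 in IM UF and 1502, 1360 and 1366 in RU UF (-0.81 ± 0.14, adjusted p = 0.00183), a call that ended with arrays scaled to 1 median (adjusted p = 0.129). Of 32 genes of oxidative phosphorylation 3 were higher and none lower (median 0.14), a share near that of all genes (7.86%): Sdhb (0.85 ± 0.15), Ndufa4 (0.39 ± 0.09) and Ndufs1 (0.63 ± 0.18), and none of the 3 was called with arrays scaled to 1 median. Ndufa4 was called in 3 of the 6 fits that leave out 1 array and Ndufs1 in none (adjusted p = 0.0615 to 0.205). Of 29 genes of insulin-like growth factor, inhibin and BMP signalling 2 were higher and 2 lower (median 0.32), among them Id4 (-0.93 ± 0.22, adjusted p = 0.0173), which was called in 2 of the 6 fits that leave out 1 array (adjusted p = 0.00718 to 0.0941).

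The remaining counts stand beside 4.38% of all genes called higher and 3.48% called lower. Of 36 cell cycle genes 1 was lower (median 0.18). Of 22 interferon and antigen presentation genes 1 was higher and 1 lower (median -0.06). Of 23 survival and cell death genes 1 was higher (median 0.18), and of 19 angiogenic genes 1 was higher (median 0.44). No call was made by limma among 3 oocyte, 2 erythrocyte and 4 surface epithelium markers tested.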
